A study of Homo sapiens with 30 samples.

Results

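The genes described here encode the lysosome and the proton pump that acidifies it. They are 41 of the 38122 genes in the table and were chosen by name: 16 subunits of the vacuolar proton pump, 6 lysosomal membrane proteins and carriers, 7 proteases, 10 other hydrolases and activator proteins, and the transcription factors TFEB and TFE3. All 41 were matched to an identifier, and all passed the filter on low values in every comparison, which keeps a gene whose mean reaches 10 in either group. ATP6V0C in HCT116 passed only through its pH 6.5 libraries, at 25.2 and 5.70, against 5.30, 6.10, 7.05, 4.91 and 14.9 at pH 7.4. In HCT116 against SiHa at pH 7.4 it passed only through SiHa, at 30.6, 19.9 and 29.3. RNA was sequenced from 3 established human cancer lines, FaDu (hypopharynx, squamous), HCT116 (colon) and SiHa (cervix, squamous), grown at pH 7.4 or at pH 6.5. Cells at pH 6.5 had been held at that pH for at least 1 month, so the comparison is of long-term growth in acid and not of an acute shift. Both groups of a line were grown in DMEM with 10 mM glucose, 2 mM glutamine, 10% fetal bovine serum, and antibiotics at 37 °C in 5% CO2, with HEPES and PIPES as buffers at 25 mM each. Each of the 6 groups of a line and a pH had 5 libraries. Each line stands for 1 tumour, and the labels do not say whether libraries came from separate cultures or from separately adapted populations, so the spread behind each p-value is that among these libraries and may be technical.

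The lysosome breaks down proteins, lipids and sugars with hydrolases that work best in an acid lumen. The vacuolar proton pump makes that lumen acid: its peripheral V1 sector splits ATP and drives protons through the membrane sector V0. TFEB and TFE3 are relatives that, when they enter the nucleus, bind short E-box sequences in the promoters of many lysosome genes and raise their transcription, and both are controlled mainly by phosphorylation and location and less by their own RNA level.

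Libraries held 21.02 to 55.7 M reads. Of the 30 libraries, 9 were set apart, 7 because they carried genes of another line and 2 for their mesenchymal markers, and every result below rests on the other 21 unless it says otherwise. FaDu pH 7.4 replicates 2 to 5 carried genes restricted to HCT116 at a median of 30.6 to 80.4% of the level in HCT116 itself. HCT116 pH 6.5 replicates 5, 6 and 7 carried genes restricted to SiHa at medians of 37.4, 101 and 103% of the SiHa level. They held genes restricted to HCT116 at only 58.8, 1.94 and 0.581% of the HCT116 level. SiHa pH 7.4 replicates 6 and 7 carried no other line's genes above a median of 0.0451% and their own at 71.4 and 59.6%, but had high mesenchymal markers, summed to 9224 and 10871 against 2965 to 4311 in the pH 7.4 libraries kept. In the libraries kept, the median over genes of another line was at most 0.0708% of their own level, and that over genes of the labelled line at least 78.4%. Setting the 9 apart left 5 libraries at pH 6.5 against 3 at pH 7.4 in SiHa, and 2 against 5 in HCT116. In FaDu it left 5 against 1, where the lone library is assumed to vary like the others. The set-apart libraries touch the genes described here directly: HEXA stood at 885 and 1136 normalised counts in HCT116-labelled pH 6.5 replicates 6 and 7 but between 112 and 172 in the HCT116 libraries kept. Squamous markers were low in SiHa, summed to at most 516 against at least 255912 in FaDu. Of 6 matched macrophage markers, which mark a cell type rich in lysosomes, CD14 alone had a mean of 10 or more in SiHa, at 809 to 1881 at pH 6.5 and 708 to 1368 at pH 7.4, while AIF1 and CD163 were at 0 in every SiHa library kept.

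Values are normalised counts per library, and a change is the log2 difference of the normalised count plus 1, pH 6.5 minus pH 7.4, ± SE. A gene was called at an adjusted p under 0.05 (limma, Benjamini-Hochberg over all genes tested). Counts of some genes are uncertain because their transcripts share sequence with others. Of the 75-base windows of the ATP6V0C transcript, 84.6% also occur in 2 other gene models, and ATP6V0C, the proton-binding ring of the pump, was counted at only 4.91 to 39.3 normalised counts. For CTSD the share was 60.0%, for CLCN7 21.4%, for CTSA 19.3%, for HEXA 19.1%, for TPP1 16.8% and for ATP6V1D 10.1%. The share was at most 5.47% in the other 34.

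At pH 6.5 the lysosome genes did not move as a block in any of the 3 lines. In SiHa 8 rose and 7 fell, in HCT116 3 rose and 3 fell, and in FaDu 1 fell and none rose. No gene of the 41 was called in the same direction in all 3 lines, where 0.151% of the genes tested in each line rose and 0.277% fell in all 3. The called share was 36.6% of the 41 in SiHa, beside 31.2% of all genes tested, 14.6% beside 20.2% in HCT116, and 2.44% beside 7.36% in FaDu. The shares lay near or below those of all genes. The median change was 0.08 in SiHa, 0.14 in HCT116 and -0.13 in FaDu, beside -0.01 over all genes in each line. Of the called changes, 1 reached 2-fold, that of CTSD in FaDu.

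**Figure D1:**
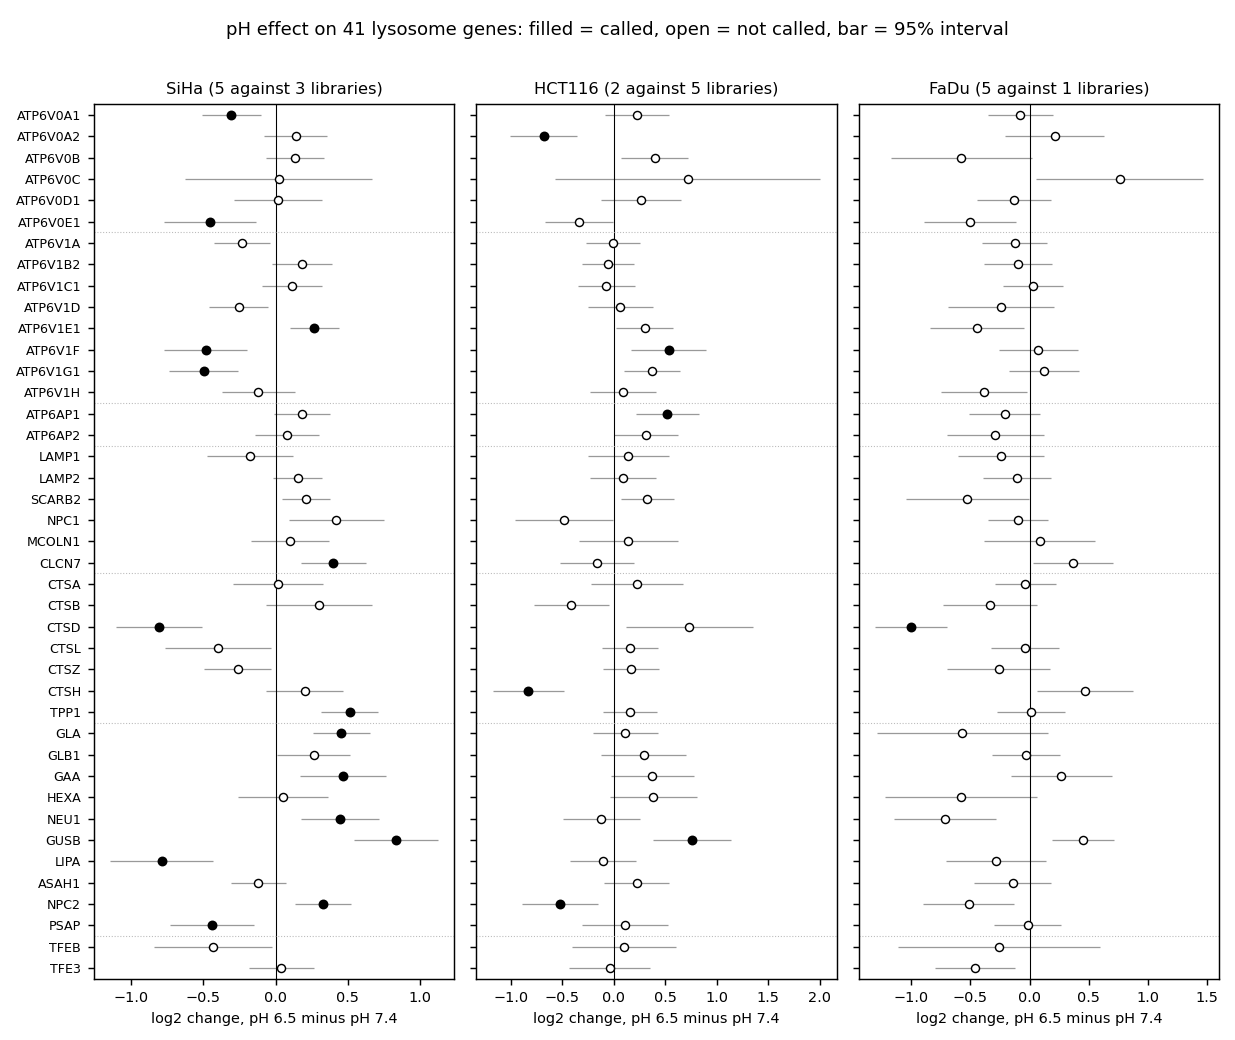
The log2 change of each of the 41 genes, pH 6.5 minus pH 7.4, is plotted on the horizontal axis for SiHa, HCT116 and FaDu, with genes in rows ordered by role and dotted lines between the roles. Bars are 95% intervals and filled points passed adjusted p under 0.05: 15 in SiHa, 6 in HCT116 and 1 in FaDu.

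SiHa cells at pH 6.5 had more RNA of several sugar-cleaving hydrolases and less of CTSD, LIPA and PSAP. Among the 10 hydrolases and activators other than proteases, 5 rose (GUSB, GLA, GAA, NEU1 and NPC2) and 2 fell (LIPA and PSAP). Over all genes tested in SiHa, 15% rose and 16.2% fell. GUSB, beta-glucuronidase, which trims glycosaminoglycans, stood at 4006, 3558, 3691, 3968 and 5415 in the 5 pH 6.5 libraries and at 2148, 2209 and 2538 at pH 7.4. The groups did not overlap, and GUSB rose by 0.83 ± 0.13 (1.78-fold, adjusted p = 0.00124). In this comparison 35.5% of all genes tested had groups that did not overlap, beside 19 of the 41 genes.

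LIPA, the acid lipase that frees fatty acids and cholesterol from lipids taken up by the cell, stood at 2593, 2411, 2379, 2133 and 1460 at pH 6.5 and at 3926, 3539 and 3702 at pH 7.4. All pH 6.5 libraries lay below all pH 7.4 libraries, and LIPA fell by 0.79 ± 0.16 on the log2 scale (adjusted p = 0.00484). NPC2, which passes cholesterol from the lumen to the membrane protein NPC1, rose by 0.33 ± 0.09 in the same cells, and NPC1 itself had a change of 0.42 with an adjusted p of 0.053. The glycosidases GAA (glycogen), GLA (alpha-galactosidase) and NEU1 (sialidase) rose by 0.47, 0.45 and 0.45. GLB1, HEXA and ASAH1 were not called, with changes of 0.26, 0.05 and -0.12. PSAP, the precursor of the saposins that help several of these enzymes reach their lipids, fell by 0.44 ± 0.13, with overlapping groups.

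Of the 7 proteases, 1 rose and 1 fell in SiHa, beside 15 and 16.2% of all genes tested. CTSD, cathepsin D, an aspartic protease, was at 4807, 3969, 3714, 3440 and 3332 at pH 6.5 and at 7368, 5558 and 7260 at pH 7.4. Every acid library was below every neutral one, and CTSD fell by 0.81 ± 0.13 (adjusted p = 0.00167). TPP1, a tripeptidyl peptidase, stood at 2741, 2721, 2759, 3154 and 3090 at pH 6.5 against 2167, 1900 and 2018, and rose by 0.51 ± 0.09 (1.43-fold, adjusted p = 0.00212). The cysteine cathepsins CTSB, CTSH, CTSL and CTSZ and the serine carboxypeptidase CTSA were not called, with changes between -0.40 for CTSL and 0.30 for CTSB.

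Of the 16 pump genes, 1 rose and 4 fell in SiHa, where 15% of all genes tested rose and 16.2% fell. ATP6V1G1, part of the stalk that links the 2 sectors, stood at 4775, 4211, 4241, 4289 and 3454 at pH 6.5 and at 6409, 5459 and 5852 at pH 7.4. It fell by 0.50 ± 0.11 (adjusted p = 0.00608) with no overlap. ATP6V1F, a subunit of the central rotor, was at 1075, 1049, 871, 839 and 737 against 1320, 1196 and 1285, also without overlap, and fell by 0.48 ± 0.13 (adjusted p = 0.0173). ATP6V0E1 and ATP6V0A1 of the membrane sector fell by 0.45 and 0.31. The stalk subunit ATP6V1E1 rose by 0.27 ± 0.08. ATP6V1A and ATP6V1B2, which form the ATP-splitting head, were not called, with changes of -0.23 and 0.18. The remaining pump genes had changes between -0.26 for ATP6V1D and 0.18 for the accessory subunit ATP6AP1. Of the membrane proteins, CLCN7, the chloride-proton exchanger, rose by 0.40 ± 0.10, and LAMP1, LAMP2, SCARB2, NPC1 and MCOLN1 were not called.

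Leaving out 1 SiHa library at a time, GUSB, GLA, TPP1, CTSD, LIPA and ATP6V1G1 passed the test in all 8 fits. The other 9 called genes missed it in at least 1 fit each. Without pH 7.4 replicate 4 the number that rose was 4, and without pH 7.4 replicate 5 it was 3. The number that fell was 11 without pH 6.5 replicate 1, 4 without pH 6.5 replicate 6, 3 without pH 7.4 replicate 1 and 3 without pH 7.4 replicate 5. Over all genes, 2775 rose and 3012 fell with no library left out. Without pH 7.4 replicate 5 these were 1736 and 1815, and without pH 6.5 replicate 1 they were 3088 and 3385. Against pH 7.4 replicate 1 alone, GUSB rose and CTSD fell and no other gene of the 41 was called. In SiHa 10 mesenchymal markers summed to 1132 to 3415 at pH 6.5 and 2965 to 4311 at pH 7.4, ranges that overlap. Single markers of that list did not: LUM was at 4.31 to 27.0 at pH 6.5 against 172, 108 and 129, and PRRX1 at 0 to 1.79 against 9.17, 20.8 and 54.1. The kept pH 7.4 replicate 5, without which 3 genes rose, also had VIM at 165 and COL1A2 at 42.9, against at most 28.4 and 10.4 in the other 2 kept and at least 2817 and 938 in those set apart. The 6 squamous markers, with KRT13 at 0 in every SiHa library kept, summed to 82.8 to 358 at pH 6.5 and 392 to 516 at pH 7.4. Their part in these results was not tested, and in bulk RNA fewer cells of a type and less RNA per cell cannot be told apart.

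**Figure D2:**
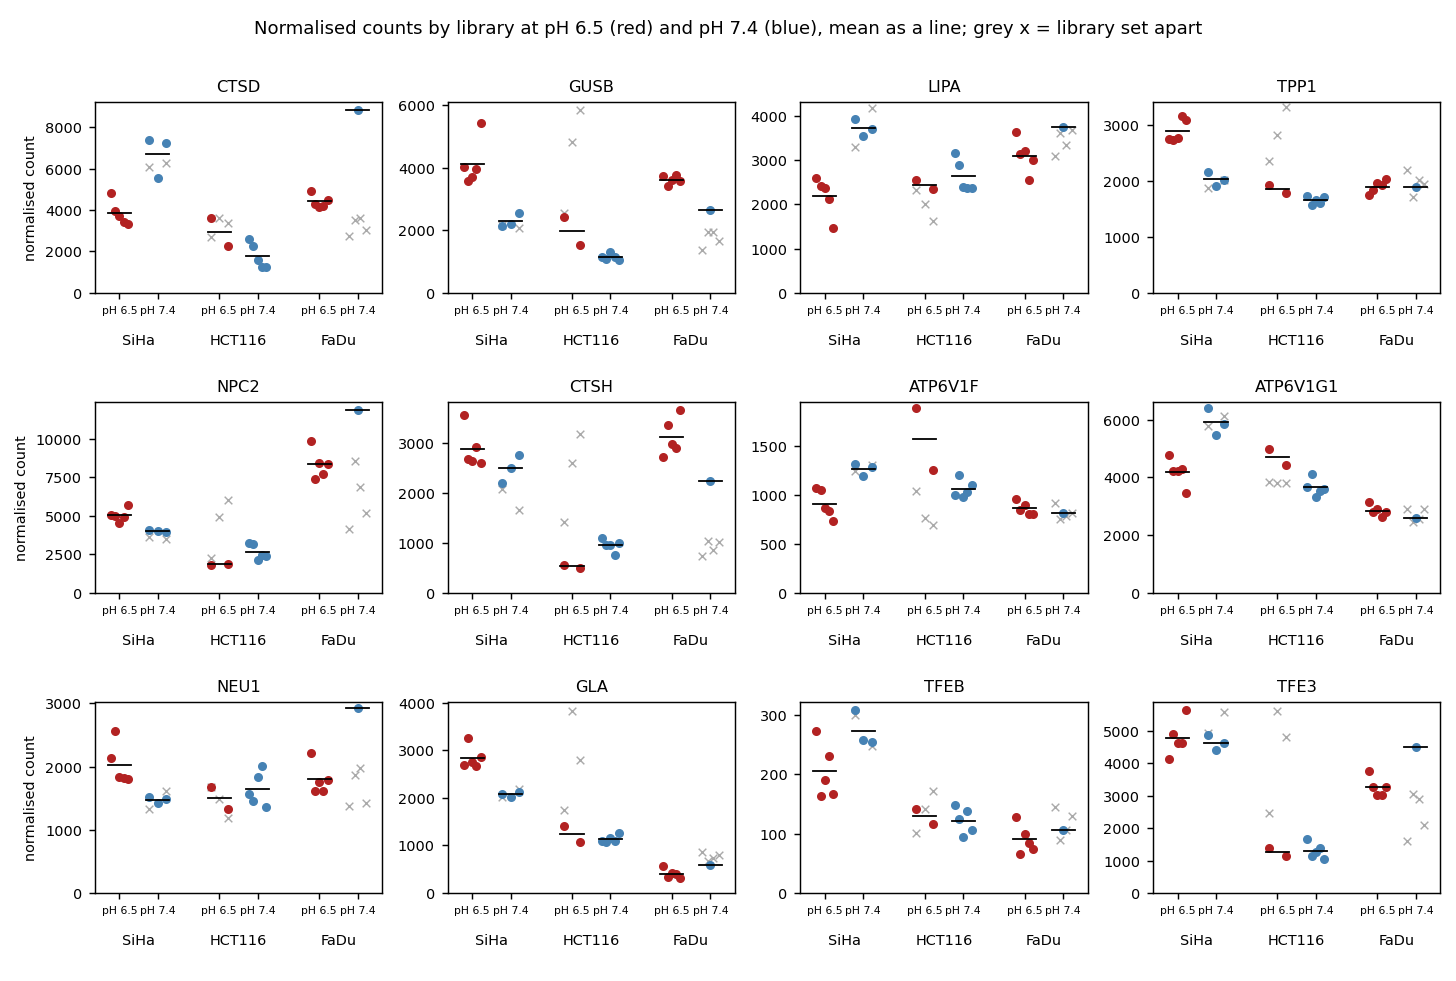
Normalised counts (vertical axes, starting at 0) of 12 of the genes in each library of SiHa, HCT116 and FaDu at pH 6.5 (red) and pH 7.4 (blue), with the mean of the libraries kept as a line and the 9 set-apart libraries as grey crosses. GUSB lies higher at pH 6.5 than at pH 7.4 in each line, and CTSD lies lower at pH 6.5 in SiHa and against the lone FaDu library at pH 7.4 but not in HCT116.

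HCT116 cells at pH 6.5 had more RNA of GUSB and of the pump genes ATP6AP1 and ATP6V1F, and less of the protease CTSH, the pump subunit ATP6V0A2 and the cholesterol carrier NPC2. GUSB was at 2434 and 1530 in the 2 pH 6.5 libraries and at 1156, 1080, 1287, 1146 and 1045 at pH 7.4. Both acid libraries lay above all neutral ones, and GUSB rose by 0.76 ± 0.17 (1.69-fold, adjusted p = 0.00957). CTSH, a cysteine protease with aminopeptidase activity, was at 559 and 502 against 1093, 952, 950, 757 and 991, with no overlap. It fell by 0.83 ± 0.16 (adjusted p = 0.00349) and was called in all 7 fits that left out 1 library. Groups that did not overlap were found for 14 of the 41 genes, beside 36.2% of all genes tested.

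NPC2 stood at 1828 and 1858 at pH 6.5 and at 3237, 3179, 2152, 2443 and 2407 at pH 7.4 in HCT116. It fell by 0.52 ± 0.17 (adjusted p = 0.0472), with both acid libraries below the neutral ones. ATP6V0A2, 1 of the large V0 subunits that hold the proton channel, was at 683 and 818 against 1130, 1240, 1418, 1173 and 1063 and fell by 0.68 ± 0.15 (adjusted p = 0.00771). ATP6V1F, which fell in SiHa, was at 1893 and 1256 against 999, 1211, 986, 1037 and 1101 and rose by 0.54 ± 0.17 (adjusted p = 0.0412). The groups did not overlap, but acid replicate 3, at 1256, was close to neutral replicate 3, at 1211. ATP6AP1, an accessory subunit needed to assemble the pump, was at 4377 and 3669 against 3344, 2810, 2690, 2695 and 2502 and rose by 0.52 ± 0.14 (adjusted p = 0.0208).

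Without pH 6.5 replicate 1 none of the 41 genes rose and 1 fell, and GUSB, ATP6AP1, ATP6V1F and ATP6V0A2 missed the test, with changes of 0.42, 0.39, 0.24 and -0.55. ATP6AP1 also missed it without pH 7.4 replicate 5 or 7, ATP6V1F without pH 7.4 replicate 5, 6 or 7, and NPC2 without pH 6.5 replicate 1 or 3 or pH 7.4 replicate 3, 6 or 7. With all 10 libraries as labelled, CTSH and NPC2 had changes of 0.43 and 0.17, neither called. The number that rose was 8 without pH 7.4 replicate 1 and 1 without pH 7.4 replicate 5 or replicate 7. Calls over all genes were likewise fewest, in both directions, without pH 6.5 replicate 1. They were most without pH 7.4 replicate 1, where 2427 rose and 2723 fell, beside 1721 and 2098 with no library left out. CTSD was not called in HCT116, at 3607 and 2256 against 2620, 2239, 1594, 1264 and 1267, a change of 0.73 ± 0.28 with overlapping groups. The 35 genes not called had changes between -0.48 for NPC1 and 0.73 for CTSD, and the 95% interval of ATP6V0C, from -0.57 to 2.01, was the widest. Summed squamous markers were higher at pH 6.5 in HCT116, at 3109 and 5384 against 249 to 1025 at pH 7.4, with none of the 6 at 0 throughout. Both acid libraries lay above all neutral ones for KRT5, KRT14, KRT6A and KRT13. The groups overlapped for TP63 (2.29 and 3.42 against 1.23 to 7.41) and DSG3 (19.5 and 3.42 against 1.01 to 6.87). The macrophage markers summed to 24.0 and 26.3 against 47.9 to 177. Their part in these results was not tested.

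In FaDu a single gene of the 41 passed the test with all 6 libraries kept. CTSD was at 4934, 4313, 4155, 4197 and 4510 at pH 6.5 and at 8842 in the 1 pH 7.4 library, and fell by 1.00 ± 0.13 (adjusted p = 0.0148). It missed the test without pH 6.5 replicate 3 or replicate 4, at an adjusted p of up to 0.0625. The 4 set-apart libraries labelled FaDu pH 7.4 held CTSD at 2743, 3506, 3612 and 3018, and with them included the change was 0.17 and not called. GUSB had a change of 0.45 ± 0.11 with an adjusted p of 0.0527, at 3721, 3407, 3603, 3763 and 3580 at pH 6.5 against 2643. NEU1 had a change of -0.72 ± 0.18 with an adjusted p of 0.0587, at 1610 to 2209 against 2927. Summed squamous markers, mostly KRT5, were at 255912 to 402556 at pH 6.5 against 449225. KRT13 of that list went the other way, at 1112 to 13497 against 369. Endothelial markers summed to 391 to 2399 against 272. Of these, CDH5 was at 326 to 2212 against 121, and VWF at 65.6 to 179 lay on both sides of 144. None of either list was at 0 throughout. The part of these markers in these results was not tested. The 16 pump genes gave no call, with changes between -0.58 for ATP6V0B and 0.76 for ATP6V0C. The lone neutral library lay outside the range of the acid libraries for 25 of the 41 genes, beside 57.1% of all genes tested.

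The acid FaDu library of replicate 1 stood apart from the other 4 in the lysosome genes. Its median distance from the pH 7.4 library of replicate 1 was 0.12 on the log2 scale, without sign, against 0.24 to 0.36 in replicates 2 to 5. For 28 of the 41 genes it lay nearer to the pH 7.4 library than any other acid library did. The same count for replicate 1 was 24 in HCT116, where there is 1 other acid library, and 16 in SiHa, where there are 4. These distances and counts were not taken over all genes, so they do not set the lysosome genes apart from other genes. For NPC2 it was at 9877 against 7403 to 8409 in the other acid libraries and 11873 at pH 7.4, and for ATP6V0B it was at 4910 against 2932 to 3286 and 5173. Without this library 16 of the 41 genes fell and 3 rose by limma, where 18.7% of all genes tested fell and 17.8% rose. This fit compares 4 libraries with 1, and leaving out the acid library nearest to the lone neutral one widens the difference by construction, so these counts describe how far the FaDu result rests on 1 library. What sets replicate 1 apart was not tested.

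**Figure D3:**
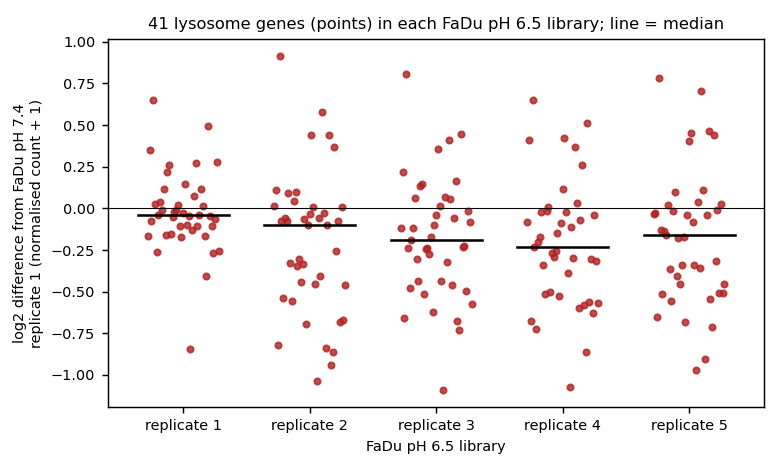
Each point is 1 of the 41 genes in 1 FaDu library at pH 6.5, with its log2 difference from FaDu pH 7.4 replicate 1 on the vertical axis and the 5 acid libraries on the horizontal axis, medians as lines. Points of replicate 1 lie closer to 0 (median distance 0.12) than those of replicates 2 to 5 (0.24 to 0.36).

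The pH effect itself differed between lines for 17 of the 41 genes (41.5%), by an F-test of the interaction in 1 limma fit over the 21 libraries, beside 33.1% of all genes tested. Between SiHa and HCT116 it differed for 12 of the 41 (24.5% of all genes), between FaDu and HCT116 for 8 (15.9%) and between SiHa and FaDu for 7 (14.9%). CTSD was the widest: its change in FaDu was lower than that in HCT116 by a log2 difference of -1.73 ± 0.38 (adjusted p = 0.00411), and its change in SiHa was lower by -1.54 ± 0.31. CTSH went the other way, its change in FaDu exceeding that in HCT116 by 1.30 ± 0.24 (adjusted p = 0.00104). The FaDu values of CTSH were 2707, 3350, 2981, 2896 and 3653 at pH 6.5 and 2242 at pH 7.4, and those of SiHa were 3559, 2667, 2630, 2923 and 2588 against 2205, 2505 and 2761. On average CTSH lay higher at pH 6.5 in both SiHa and FaDu, uncalled in each, and it fell in HCT116. The 6 genes named by rule for this F-test were CTSD, CTSH, NEU1, GLA, ATP6V1F and ATP6V0B. All 6 missed it with a replicate block, and 4 of the 6 with all libraries as labelled.

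Of the 4 genes called in 2 lines, GUSB rose in both SiHa and HCT116 and CTSD fell in both SiHa and FaDu, while NPC2 and ATP6V1F went opposite ways. NPC2 stood at 5064, 4960, 4506, 4957 and 5703 at pH 6.5 and at 4074, 4033 and 3920 at pH 7.4 in SiHa, where it rose, and it fell in HCT116. The 2 changes differed by 0.85 ± 0.18 (adjusted p = 0.00220). For ATP6V1F the change in SiHa was lower than that in HCT116 by a log2 difference of -1.02 ± 0.20 (adjusted p = 0.000964). In FaDu ATP6V1F was at 957, 848, 904, 813 and 812 against 822, on both sides of the neutral library.

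The pH effects of NEU1 and GLA differed between SiHa and FaDu, though FaDu has a lone neutral library and neither gene was called there. NEU1 was at 2133, 2567, 1833, 1822 and 1801 at pH 6.5 against 1525, 1424 and 1484 at pH 7.4 in SiHa, and at 2209, 1610, 1762, 1612 and 1784 against 2927 in FaDu. Its change in SiHa exceeded that in FaDu by 1.16 ± 0.25 (adjusted p = 0.00401). GLA was at 2702, 3264, 2758, 2669 and 2856 against 2090, 2016 and 2120 in SiHa, and at 575, 330, 429, 390 and 315 against 590 in FaDu, a difference between the changes of 1.02 ± 0.26 (adjusted p = 0.0116). Both genes lay above the neutral libraries in all 5 acid SiHa libraries and below the neutral library in all 5 acid FaDu libraries. ATP6V0B, a ring subunit of V0, was at 4626 and 3122 against 2691 to 3051 in HCT116 and at 2932 to 4910 against 5173 in FaDu. Its change in FaDu was lower than that in HCT116 by a log2 difference of -0.97 ± 0.26 (adjusted p = 0.0137).

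TFEB and TFE3 were not called for pH in any line. TFEB was at 272, 164, 191, 231 and 167 at pH 6.5 against 309, 257 and 254 at pH 7.4 in SiHa, a change of -0.43 ± 0.19 (adjusted p = 0.0977). It was at 142 and 116 against 147, 124, 93.6, 138 and 107 in HCT116, a change of 0.10 with a 95% interval from -0.41 to 0.60. In FaDu it was at 128, 65.9, 99.7, 84.6 and 74.0 against 105. The groups overlapped in all 3 lines. TFE3 was at 4143, 4901, 4618, 4618 and 5650 against 4862, 4424 and 4629 in SiHa, and at 1376 and 1128 against 1668, 1149, 1253, 1395 and 1036 in HCT116. In FaDu it was at 3760, 3273, 3016, 3031 and 3281 against 4494, a change of -0.46 ± 0.14 (adjusted p = 0.0924). The 95% intervals ran from -0.18 to 0.26 for TFE3 in SiHa, from -0.44 to 0.35 in HCT116 and from -0.80 to -0.12 in FaDu, and from -0.84 to -0.02 for TFEB in SiHa.

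The core of the element through which TFEB and TFE3 bind lysosome promoters is the E-box CACGTG, and a longer form of it is TCACGTGA. Both read the same on either strand, and each TCACGTGA also counts as a CACGTG. RefSeq promoter windows (GRCh38.p14, 250 bases before to 50 after the start) were found for 31 of the 41 genes. CACGTG occurred in 10 of the 31 (32.3%), beside 7.43% of 27305 promoters of the same length, and TCACGTGA in 6 (19.4%), beside 1.04%. The 4 genes that were called for pH in SiHa and carry either form within 100 bases before the start are printed as those 100 bases, 5′ to 3′ on the strand of the gene, because genes with the same letters did not share a direction. Capitals mark TCACGTGA, or CACGTG where its neighbours differ.
GAA, plus strand, chr17:80101481-80101580: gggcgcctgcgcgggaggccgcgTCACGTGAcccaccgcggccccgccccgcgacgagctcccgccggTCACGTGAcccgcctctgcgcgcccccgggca
CLCN7, minus strand, chr16:1475029-1475128: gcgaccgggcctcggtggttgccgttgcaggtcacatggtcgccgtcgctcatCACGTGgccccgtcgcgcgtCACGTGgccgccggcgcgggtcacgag
ATP6V1G1, plus strand, chr9:114587669-114587768: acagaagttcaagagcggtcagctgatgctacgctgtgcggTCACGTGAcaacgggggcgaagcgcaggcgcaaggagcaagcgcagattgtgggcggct
CTSD, minus strand, chr11:1763928-1764027: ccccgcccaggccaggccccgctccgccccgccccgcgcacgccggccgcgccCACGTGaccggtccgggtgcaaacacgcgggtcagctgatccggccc

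In SiHa, GAA with 2 copies of TCACGTGA and CLCN7 with 2 of CACGTG rose, while ATP6V1G1 with 1 copy of TCACGTGA and CTSD with 1 of CACGTG fell. MCOLN1, a lysosomal calcium channel, was not called, with a change of 0.10. Its window had 2 copies of CACGTG and carried the longer form TCACGTGA. Of the 10 genes with CACGTG, 3 rose and 2 fell in SiHa, none was called in HCT116 and CTSD fell in FaDu. Of the 21 with no CACGTG in the window, 5 rose and 3 fell in SiHa, 3 rose and 3 fell in HCT116 and none was called in FaDu. GUSB, which rose in 2 lines, had no CACGTG in these 300 bases. A match is a description of the letters and not of binding.

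Between lines, most of the lysosome genes differed. FaDu against SiHa at pH 6.5 gave 29 called genes of the 41 (70.7%, beside 74.1% of all genes tested), 10 higher in FaDu and 19 higher in SiHa, where 39.4 and 34.7% of all genes were higher and lower in FaDu and 60% had groups that did not overlap. HCT116 against FaDu at pH 6.5 gave 28 (68.3%, beside 63.9%), 8 higher and 20 lower in HCT116, beside 30.9 and 33% of all genes, of which 67.9% had groups that did not overlap. HCT116 against SiHa at pH 7.4 gave 36 (87.8%, beside 73.4%), 5 higher and 31 lower in HCT116, beside 37.3 and 36.1%, with 68.7% not overlapping. The median difference in that last comparison was -0.54 over the 41 genes and 0.01 over all genes. Its 31 lower genes include ATP6V0C, which passed the filter there only through SiHa, where it is higher. The first 2 comparisons share the FaDu libraries.

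**Figure D4:**
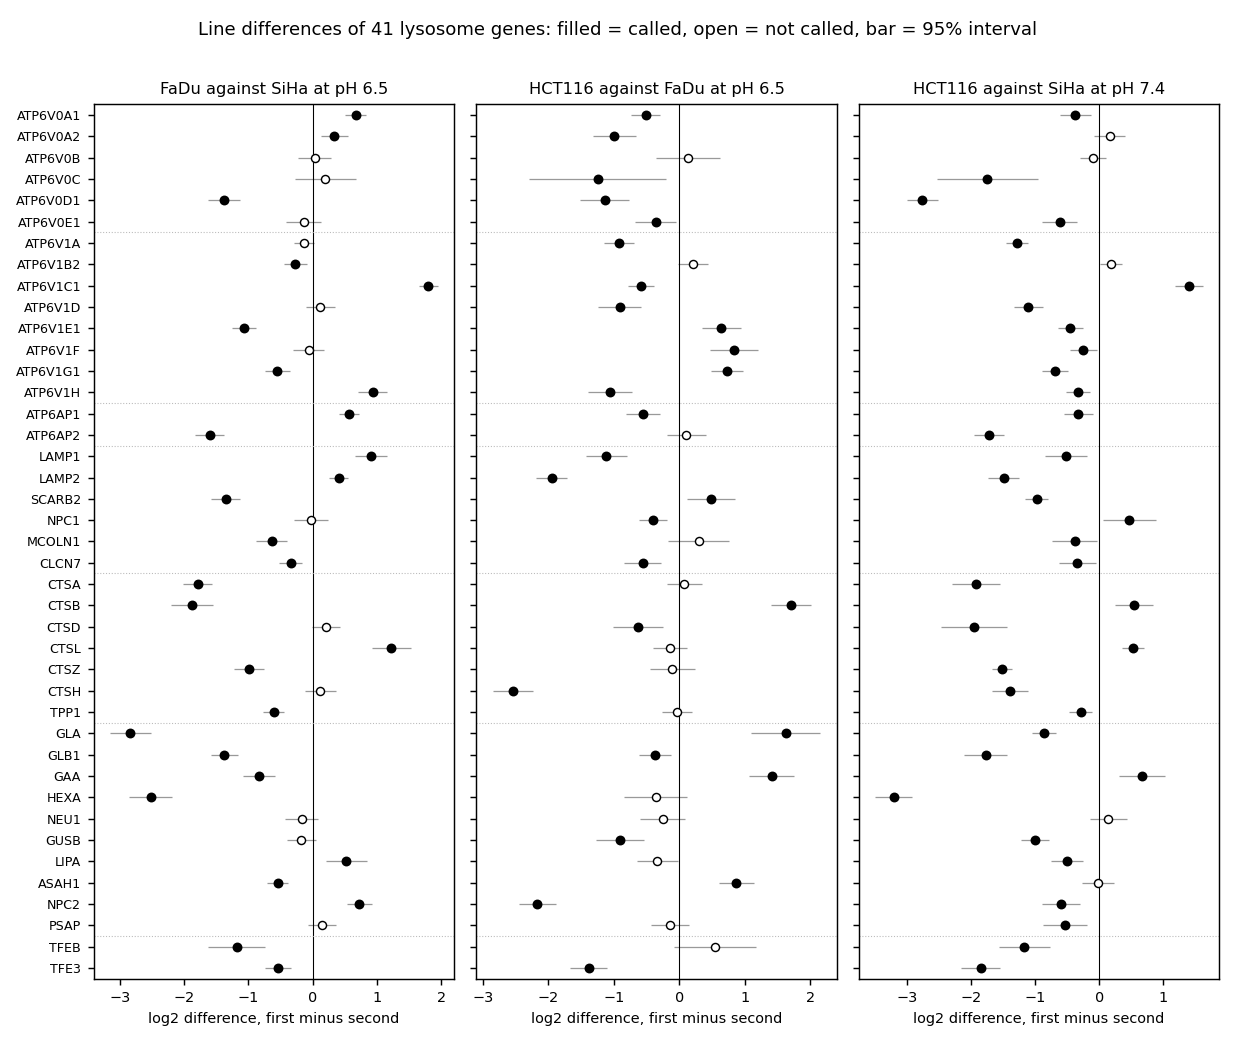
The log2 difference in each of the 41 genes is plotted for FaDu minus SiHa at pH 6.5, HCT116 minus FaDu at pH 6.5 and HCT116 minus SiHa at pH 7.4, with genes in rows by role, bars as 95% intervals and filled points for adjusted p under 0.05. In HCT116 minus SiHa 31 filled points lie left of 0 and 5 right of it, and HEXA at -3.21 and ATP6V0D1 at -2.76 lie farthest to the left.

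HEXA, the alpha subunit of beta-hexosaminidase, gave the widest line difference. It stood at 1605, 1350, 1236, 1137 and 1017 in SiHa at pH 6.5, at 291, 170, 205, 218 and 224 in FaDu and at 167 and 172 in HCT116. The lowest SiHa library was above the highest of the other lines, and at pH 7.4, with 1339, 1090 and 1217 in SiHa against 112 to 145 in HCT116, HEXA was 9.27-fold higher in SiHa (log2 difference -3.21 ± 0.13, adjusted p = 2.67e-09). GLA was 7.13-fold higher in SiHa than in FaDu at pH 6.5 (-2.83 ± 0.15, adjusted p = 1.86e-09). The levels in HCT116, 1404 and 1071, lay between those of the other 2 lines.

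CTSB, a cysteine protease, separated FaDu from both other lines. It was at 2585, 1949, 1970, 2040 and 2104 in FaDu at pH 6.5, at 9840, 10149, 6912, 7090 and 5842 in SiHa and at 7507 and 6352 in HCT116. CTSB was 3.67-fold higher in SiHa and 3.26-fold higher in HCT116 than in FaDu. CTSH was 5.84-fold lower in HCT116 than in FaDu (-2.55 ± 0.13, adjusted p = 6.04e-07). CTSL, another cysteine protease, was at 2545 to 2920 in FaDu and 807 to 1546 in SiHa, 2.33-fold higher in FaDu. CTSD was 3.88-fold higher in SiHa than in HCT116 at pH 7.4.

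Pump subunits did not share 1 order of the lines. ATP6V1C1, which regulates the joining of the 2 sectors, was at 5202, 5571, 5468, 5154 and 5313 in FaDu at pH 6.5, at 3574 and 3550 in HCT116 and at 1507, 1703, 1595, 1496 and 1406 in SiHa. No 2 of these ranges touch, and the gene was 3.47-fold higher in FaDu than in SiHa (1.80 ± 0.07, adjusted p = 1.34e-10). ATP6V0D1, which couples the rotor to the ring, was highest in SiHa and lowest in HCT116, at 9259 to 14952 in SiHa, 4320 to 5182 in FaDu and 1690 and 2639 in HCT116. It was 6.79-fold higher in SiHa than in HCT116 at pH 7.4. ATP6V1H, a regulatory subunit of V1, was 1.91-fold higher in FaDu than in SiHa. Of the 16 pump genes 12 were lower and 1 higher in HCT116 than in SiHa at pH 7.4, beside 36.1 and 37.3% of all genes tested. The 12 include ATP6V0C, which passed the filter there only through SiHa, where it is higher.

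LAMP2, a main glycoprotein of the lysosomal membrane, was at 9474 to 10825 in FaDu and at 2728 and 2403 in HCT116 at pH 6.5, a 3.87-fold difference. NPC2 was 4.50-fold higher in FaDu than in HCT116, and GAA and GLA were 2.67-fold and 3.08-fold higher in HCT116. TFEB was 2.27-fold higher in SiHa than in FaDu at pH 6.5 and 2.25-fold higher than in HCT116 at pH 7.4. TFE3 was 1.46-fold and 3.61-fold higher in SiHa in the same comparisons. TFEB was not called between HCT116 and FaDu at pH 6.5 (0.54 ± 0.28, adjusted p = 0.114).

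The rest of the lysosomal system was read from 133 further genes in 5 lists: pump isoforms and assembly factors, other hydrolases, other membrane proteins and carriers, mannose 6-phosphate sorting, and regulators of mTORC1, which holds TFEB and TFE3 in the cytoplasm. These were not checked for shared sequence. In SiHa 25 of the 126 tested rose and 22 fell, in HCT116 23 of 125 rose and 5 fell, and in FaDu 6 of 126 rose and 1 fell. The shares of all genes that rose and fell were 15 and 16.2% in SiHa, 9.11 and 11.1% in HCT116 and 4.24 and 3.12% in FaDu. In HCT116 10 of the 39 other hydrolases tested rose and none fell. In SiHa 10 of 41 rose and 7 fell.

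**Figure D5:**
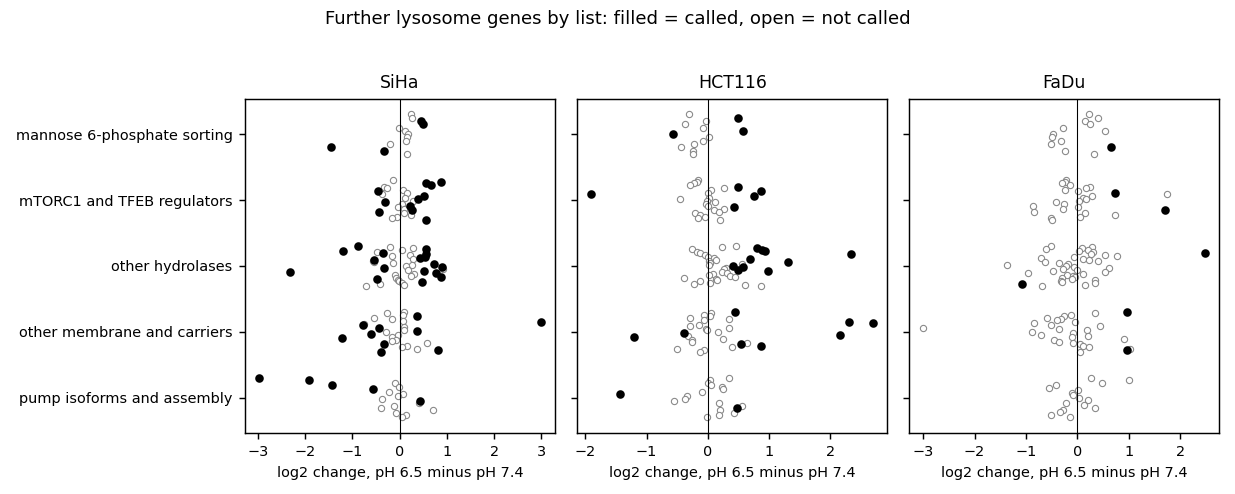
Each point is 1 of the further lysosome genes tested, in rows by list, with its log2 change at pH 6.5 minus pH 7.4 on the horizontal axis for SiHa, HCT116 and FaDu, and filled points passed adjusted p under 0.05. SiHa has 47 filled points, 25 right of 0, HCT116 has 28, 23 right of 0, and FaDu has 7, 6 right of 0.

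GPNMB, a glycoprotein of lysosomes and melanosomes and a known target of the TFEB family, rose in 2 lines. In SiHa it was at 257, 207, 168, 190 and 114 at pH 6.5 against 11.2, 42.6 and 21.4, a rise of 2.99 ± 0.38 (adjusted p = 0.000328). In HCT116 it was at 401 and 431 against 119, 103, 43.3, 78.6 and 94.0, a rise of 2.31 ± 0.33 (adjusted p = 0.000482). Neither line's groups overlapped, and with all HCT116 libraries as labelled the change was 0.83 and not called. In FaDu the acid libraries, at 4203 to 7860, lay on both sides of the neutral one at 5681.

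Of the 26 mTORC1 and TFEB regulators tested in SiHa, 8 rose and 3 fell, beside 15 and 16.2% of all genes tested. Their median change was 0.09. FLCN, folliculin, which activates RRAGC and RRAGD and so lets mTORC1 phosphorylate TFEB, was at 972, 1027, 1064, 1236 and 1396 at pH 6.5 against 539, 671 and 633 and rose by 0.88 ± 0.13 (1.84-fold, adjusted p = 0.000973). Its partners FNIP1 and FNIP2, named after their values were seen, rose by 0.56 and 0.66 in the same cells, FNIP2 with overlapping groups. RRAGD fell by 0.43 in SiHa. In FaDu RRAGD was at 318, 706, 611, 524 and 661 against 167 and rose by 1.70 ± 0.40 (adjusted p = 0.0473), with replicate 1 the lowest of the acid libraries. RRAGD missed the test in FaDu without any 1 of pH 6.5 replicates 2, 3, 4 and 5, and passed it without replicate 1.

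The strongest falls in SiHa were those of IDUA, an iduronidase, by 2.32 ± 0.37 (17.9 to 52.6 at pH 6.5 against 94.7 to 235), of the pump isoform ATP6V0E2 by 1.93 ± 0.20 (247 to 473 against 1265 to 1410), and of the sorting receptor SORT1 by 1.45 ± 0.10 (480 to 532 against 1255 to 1482). The order is among called genes whose mean reached 100 in either group. IDUA rose in HCT116 by 0.98 ± 0.20, and SORT1 rose in FaDu by 0.66 ± 0.15. Of the 18 pump isoforms and assembly factors tested in SiHa, 1 rose and 4 fell, beside 15 and 16.2% of all genes tested. Besides ATP6V0E2 those that fell were ATP6V0A4 and ATP6V1C2, isoforms known from kidney and other specialised epithelia, and the assembly factor CCDC115, named after their values were seen. ATP6V0A4 was at 0.854 to 3.59 at pH 6.5, where 3 reads are worth 2.56 to 4.20, against 11.4 to 35.0, and ATP6V1C2 at 14.3 to 37.7 against 53.0 to 75.6. CCDC115 was at 778 to 920 against 1158 to 1279.

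In HCT116 LAMP3, an inducible lysosomal glycoprotein, rose by 2.70 ± 0.28 (1193 and 605 against 93.4 to 171), and the cysteine protease CTSO rose by 2.33 ± 0.39 (211 and 161 against 23.3 to 64.5). SLC17A5, the sialic acid exporter, was at 1391 and 1281 against 2757 to 3418 and fell by 1.21 ± 0.13. DMXL2, a pump assembly factor, fell by 1.43 ± 0.22 (1006 and 1493 against 2388 to 4039). MITF, a relative of TFEB, was at 61.8 and 13.7 against 90.9 to 132 and fell by 1.90 ± 0.43. It missed the test without pH 6.5 replicate 3, with a change of -0.86, and had a change of -2.95 without replicate 1. With all HCT116 libraries as labelled LAMP3, DMXL2 and MITF had changes of 1.13, -0.44 and 0.26, none called. In FaDu CTSF, a cysteine protease, was at 233, 586, 566, 550 and 621 against 85.7 and rose by 2.48 ± 0.50, the lipid transporter ABCA2 rose by 0.97 ± 0.16 and the serine carboxypeptidase SCPEP1 fell by 1.07 ± 0.23. CTSF and SCPEP1 missed the test without any 1 of pH 6.5 replicates 2, 3, 4 and 5, and ABCA2 without replicate 3, 4 or 5. With all FaDu libraries as labelled ABCA2 had a change of -0.03, SCPEP1 one of -0.14 and RRAGD one of 0.33, none called.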

How the data were processed

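Libraries of total RNA from FaDu, HCT116 and SiHa cells at pH 6.5 or pH 7.4 were sequenced, 30 in all. Tools listed in the submitters' processing notes are STAR 2.6.1d, Trimmomatic 0.38, bcl2fastq 2.20, FastQC and DESeq2 1.22.2, with GRCh37 as the build. Sources used here do not give the read counter, strand setting or annotation, so a gene and its antisense partner cannot be told apart. The deposited table gives normalised counts (the unit is a signal, reads divided by a size factor). The low values are whole multiples of 1 step, and 100% of the values came out as whole reads within 0.01 of a step.

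Symbols came from reference tables, which matched 35466 identifiers and not the other 2656. The 41 genes, the further lists, the tests and the 9 libraries set apart were chosen with earlier results of these data known. In each comparison limma 3.58.1 (R 4.3.3, intensity trend, 2-sided) tested log2 of the normalised count plus 1 for genes whose mean reached 10 in either group, with Benjamini-Hochberg adjustment over all genes tested. A fold change on this scale understates changes of low genes. The limit at 0 reads is 3 reads (1.90 to 5.01 normalised counts by library) and covers counting error only. Genes were named by rule: TFEB, TFE3, the 6 genes whose pH effect differed most between lines, the 6 largest called changes per line, and for each line contrast the 3 highest and 3 lowest, and of the further genes up to 3 called per direction with a mean of at least 100; 1 gene that the rule names is not reported here. Tests were checked on simulated data. Alternatives were edgeR 4.0.16 and DESeq2 1.42.0 on the recovered reads, rescaling by TMM, a pseudocount of 5, no filter, 1 fit over the 21 libraries, a replicate block, all 30 libraries as labelled, SiHa pH 7.4 replicate 1 alone, and each library left out. Promoters came from the RefSeq table, and shared windows of 75 bases, taken every 5 bases, from the GENCODE transcripts provided. Tables were read with Python 3.11.15, numpy 2.4.6 and pandas 2.3.3, and figures drawn with matplotlib 3.10.9.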

Additional observations from a re-analysis of the deposited data

Results flagged for a closer look

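Dixon's criterion flags about 1 in 20 groups by chance alone where groups are independent, which genes of 1 library are not. Among 123 groups of 5 libraries (1 gene in 1 group), 14 had a library outlying by it. FaDu pH 6.5 replicate 1 held 8 of them, all above the other 4 acid libraries: ATP6V0B at 4910, ATP6V1D at 3090, ATP6V1E1 at 3968, LAMP1 at 21905, SCARB2 at 4314, CTSB at 2585, CTSZ at 5348 and GLB1 at 2459. HCT116 pH 7.4 replicate 1 held 4, with ATP6V0D1 at 2166, CTSB at 12432, GLB1 at 2001 and PSAP at 42380 above the other 4 neutral libraries. The last 2 were GUSB at 5415 in SiHa pH 6.5 replicate 7 and ATP6V0C at 14.9 in HCT116 pH 7.4 replicate 7. What sets these libraries apart was not tested.

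The pH effect differed between lines for 17 genes by the F-test, and the widest pairwise difference of each follows, as a log2 difference between the changes. For SiHa minus HCT116 it was 0.56 for CLCN7, 0.90 for NPC1, 0.85 for NPC2, -0.53 for ATP6V0A1, -1.02 for ATP6V1F and -0.87 for ATP6V1G1. For FaDu minus HCT116 it was -0.85 for SCARB2, -0.97 for HEXA, -1.73 for CTSD, 1.30 for CTSH, -0.73 for ATP6AP1, 0.89 for ATP6V0A2, -0.97 for ATP6V0B and -0.75 for ATP6V1E1. For SiHa minus FaDu it was 1.02 for GLA, 1.16 for NEU1 and 0.50 for TPP1.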

How the results depend on the processing

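Values are counts of the 41 genes that rose and fell, unless they are log2 changes. In SiHa (8 and 7) all libraries as labelled gave 15 that rose, the same with a replicate block 15 and 11, pH 7.4 replicate 1 alone 1 and 1, and the replicate block on the libraries kept 4 that fell. In HCT116 (3 and 3) all libraries as labelled gave 7 and 1, with the block 1 that fell, the block on the libraries kept 1 that rose, edgeR 5, DESeq2 7 and 1 fit over the 21 libraries 6 that rose. In FaDu (0 and 1) all libraries as labelled gave 13 and 3, with the block 11 and 6, a pseudocount of 5 and TMM each 1 that rose, edgeR 2 that fell, DESeq2 1 and 2, and 1 fit over the 21 libraries 4 that fell. HCT116 against FaDu gave 12 lower (20) as labelled, and the effect that differed between lines was called for 2 genes (17) with the block. Leaving out 1 library gave 3 to 10 and 3 to 11 in SiHa, 0 to 8 and 1 to 4 in HCT116, 0 to 3 and 0 to 16 in FaDu, 10 to 12 and 19 to 20 for FaDu against SiHa, 7 to 10 and 16 to 21 for HCT116 against FaDu, 4 to 5 and 26 to 31 for HCT116 against SiHa, and 13 to 21 for the difference between lines. The signs that turned did so with all libraries as labelled: in HCT116 ATP6V1F -0.0089, CTSH 0.43, NPC2 0.17 and MITF 0.26, and in FaDu ATP6V0A1 0.32, ATP6V0D1 0.54, ATP6V1A 0.37, ATP6AP1 0.45, LAMP2 0.80, CTSD 0.17, CTSL 0.33, GLB1 0.46, PSAP 0.24 and ABCA2 -0.027, and with the block also LAMP1 0.34 and GAA -0.50. These fits hold libraries that carry another line's genes; otherwise the cause was not tested.

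Over all genes, SiHa (2775 rose, 3012 fell) gave 1027 and 843 against replicate 1 alone. HCT116 (1721, 2098) gave 593 and 814 as labelled with the block and 1145 that rose with the block on the libraries kept. FaDu (812, 599) gave 4727 and 4388 as labelled, 4502 and 4349 with the block, 479 that rose with no filter, 1399 and 1286 by DESeq2, and 1391 that fell in 1 fit over the 21 libraries. HCT116 against FaDu gave 4122 higher (6227) as labelled, and the difference between lines 949 (7327) with the block. edgeR on the recovered reads called 2912 and 2965 in SiHa, 2068 and 1848 in HCT116 and 599 and 769 in FaDu. Same-numbered libraries share only a number: their deviations correlated at 0.316, 0.0478 and 0.0790 in SiHa and 0.173 and 0.0553 in HCT116, each SiHa library correlating best with its own number, as a hint from the data. The block was fitted on the libraries kept in SiHa (10 rose, 4 fell) and HCT116 (1 and 4), but not in FaDu alone, whose groups then share 1 number. Depth bears most on ATP6V0C, at 4.91 to 39.3 normalised counts where 3 reads are worth 1.90 to 5.01.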
